A study of Rattus norvegicus with 77 samples.

Results

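Many of the genes described here build or anchor the cilium, and others belong to the centrosome. Of 14506 genes with 1 symbol in the platform annotation, 46 carried a name beginning with Ift, Bbs or Cep and a number, or were Sclt1. They comprised 17 Ift, 6 Bbs and 22 Cep genes and Sclt1, read from 47 probe sets, where a probe set is the group of probes for 1 transcript. Cep112 had 2 probe sets, and for each gene the probe set of highest mean over the 77 arrays was used.

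The arrays measured sperm RNA from the cauda epididymis of adult male Fischer 344 rats, with 1 rat per array. The groups were HD (19 rats given 0.33% 2,5-hexanedione in the drinking water for 3 months) and water (20 rats, the same period without the toxicant). The HD-recovery (20 rats) and water-recovery (18 rats) groups had the same exposures and then 3 months of plain water, so they were also older. 2,5-Hexanedione, abbreviated HD, cross-links tubulin and acts on the Sertoli cell, the cell that supports germ cells in the testis. All values below are the deposited log2 intensities or differences between their group means.

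Intraflagellar transport (IFT) carries tubulin and other cargo along the growing axoneme on trains of IFT-B and IFT-A particles, and the BBSome links membrane proteins to these trains. The axoneme grows from a centriole, whose distal appendages dock it to the membrane and whose subdistal appendages anchor microtubules. In spermatids this machinery starts the tail, and in rodents the centrioles degenerate as sperm mature, while mature sperm are nearly silent in transcription.

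The upstream sequence of 40 of the 46 genes was found in the RefSeq table of rat build GRCr8, as 250 bases before to 50 after the start used in that table, which names no transcript. The first window listed for a gene was taken. Those of the 4 genes that were lower in arrays labelled HD are shown. Capitals mark the core motif of the RFX factors, known regulators of ciliary genes, spelled GTTGCC or, on the other strand, GGCAAC. The windows are Ift81, chr12:39618372-39618671 on the plus strand, Cep112, chr10:93865449-93865748 on the plus strand, Sclt1, chr2:126691723-126692022 on the minus strand, and Cep128, chr6:116059709-116060008 on the minus strand.
Ift81: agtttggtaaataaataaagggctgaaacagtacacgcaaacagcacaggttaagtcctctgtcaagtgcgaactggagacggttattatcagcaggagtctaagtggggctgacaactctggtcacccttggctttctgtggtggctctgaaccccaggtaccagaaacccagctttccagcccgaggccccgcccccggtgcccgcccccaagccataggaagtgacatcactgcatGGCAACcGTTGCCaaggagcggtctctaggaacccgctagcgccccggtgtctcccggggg
Cep112: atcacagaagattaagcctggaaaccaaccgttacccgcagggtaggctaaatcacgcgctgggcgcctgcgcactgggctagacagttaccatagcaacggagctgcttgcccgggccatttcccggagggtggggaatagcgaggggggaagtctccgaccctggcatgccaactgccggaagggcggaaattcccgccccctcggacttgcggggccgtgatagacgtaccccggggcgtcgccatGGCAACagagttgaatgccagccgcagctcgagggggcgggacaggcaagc
Sclt1: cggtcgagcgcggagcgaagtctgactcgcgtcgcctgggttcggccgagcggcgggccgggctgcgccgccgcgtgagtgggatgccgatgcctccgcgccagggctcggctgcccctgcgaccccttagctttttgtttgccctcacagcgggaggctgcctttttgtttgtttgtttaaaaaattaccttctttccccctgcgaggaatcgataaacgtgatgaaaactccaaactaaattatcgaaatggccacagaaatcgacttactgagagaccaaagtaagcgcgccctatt
Cep128: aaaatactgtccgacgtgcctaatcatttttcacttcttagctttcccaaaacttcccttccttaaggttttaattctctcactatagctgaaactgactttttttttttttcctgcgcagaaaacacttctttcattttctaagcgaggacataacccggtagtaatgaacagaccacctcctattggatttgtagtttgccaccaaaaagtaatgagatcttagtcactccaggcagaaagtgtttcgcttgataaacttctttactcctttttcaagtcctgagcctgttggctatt

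The gene records of RefSeq begin 63 bases upstream of this start for Ift81, 69 for Cep112 and 107 for Sclt1, and at the same base for Cep128, so positions hold for the start of the table alone. Counted from that start base as position 0, the Ift81 window held GGCAAC at -11 and GTTGCC at -4, and the Cep112 window held GGCAAC at -1. These letters did not occur in the windows of Sclt1 and Cep128. The RFX motif was present in 14 of the 40 member windows (35%) and in 12.2% of all 27457 windows of the table. The CCAAT box, in either orientation, was in 18 member windows (45%), that of Cep128 among them, against 37.7% of all. The cAMP response element TGACGTCA was in 2 member windows (5%) against 1.91% of all. The shorter TGACGT, which the full element contains, was in 5 (12.5%) against 8.22%. A match describes the letters and shows no binding.

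Array medians lay between 6.51 and 6.78, and the first principal component held 41.9% of the variance left after group means were removed. By their median correlation with their own group, 10 arrays stood apart, at more than 3 scaled median absolute deviations below the group's median. They were HD 3, 4, 5 and 14, water 20, HD-recovery 2, 9 and 16, and water-recovery 12 and 15, and all were kept. For the labelled tissue, 26 of 29 spermatid and sperm markers were on the array, with a mean log2 level from 8.76 to 9.09 across the 4 groups. The mean of 28 leukocyte and macrophage markers ran from 7.34 to 7.67.

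Among the arrays at the end of exposure, Sclt1, Ift81, Cep112 and Cep128 were lower in those labelled HD than in those labelled water, by 1.54-fold to 1.74-fold. These 4 of the 46 members passed the test, all in 1 direction (limma over all probe sets, Storey q under 0.05, n = 19 and 20 arrays). Of all 29214 probe sets, 138 passed (0.472%), and 0.455% passed as lower. The direction by the labels is opposite to the one the study gives for most altered transcripts, Ift81 and Sclt1 among them. In other rats, the study followed HD exposure and recovery by quantitative PCR, against rats taken before exposure. There Ift81 and Sclt1 were higher at the end of exposure, again opposite to the labels, and were still higher after recovery. Clu and Lyz2, described below, were lower there, which is opposite to the labels for Clu and the same for Lyz2. At the end of exposure neither passed the study's analysis of variance against the rats taken before exposure. By its t-test Clu had p under 0.05 and Lyz2 did not. The deposited values cannot settle which direction is right. Each "lower" or "higher" below is therefore by the labels, and the groups are named by them throughout. All 4 genes are among those the study listed from these samples, Cep112 and Cep128 under older names, and they give no independent evidence on the family. The other 42 members did not pass.

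Sclt1 encodes a distal appendage protein that is needed for centriole docking. Its log2 level in arrays labelled HD ran from 5.24 through a median of 5.81 to 6.70, and in arrays labelled water from 5.47 through 6.59 to 7.33. The ranges overlapped, with 17 of 19 HD arrays under the median of water and only HD 3 and HD 14 above it. The difference of means was -0.71 (SE 0.15, q = 0.014 from limma, n = 19 and 20).

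Ift81 encodes the IFT-B subunit that, with Ift74, binds tubulin. Its level ran from 6.13 through 6.87 to 8.01 in arrays labelled HD and from 6.60 through 7.74 to 8.34 in arrays labelled water. Again 17 HD arrays lay below the water median, and the exceptions were HD 5 and HD 14. The log2 difference was -0.74 (SE 0.17, q = 0.027 from limma), a 1.67-fold lower level.

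Cep112 encodes a coiled-coil protein of the centrosome that is linked to the junction of sperm head and tail. Its level ran from 6.72 through 7.40 to 9.07 in arrays labelled HD and from 7.36 through 8.52 to 9.26 in arrays labelled water. Only HD 14 lay above the water median. The log2 difference was -0.80 (SE 0.19, q = 0.038 from limma), the largest of the 46 by size. The second probe set of Cep112 had -0.61 (SE 0.16) and missed the threshold (q = 0.076 from limma).

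Cep128 encodes a subdistal appendage protein. Its level ran from 7.11 through 7.95 to 8.94 in arrays labelled HD and from 7.39 through 8.58 to 9.22 in arrays labelled water. HD 5 and HD 14 were above the water median and the other 17 below it. The log2 difference was -0.62 (SE 0.15, q = 0.036 from limma).

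Cep15, a small protein of the centrosome, showed no such pattern. Its level ran from 6.09 through 6.39 to 7.20 in arrays labelled HD and from 5.97 through 6.46 to 6.89 in arrays labelled water. The log2 difference of 0.04 (SE 0.09) had a 95% confidence interval from -0.14 to 0.22 and did not pass (q = 0.98 from limma).

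**Figure D1:**
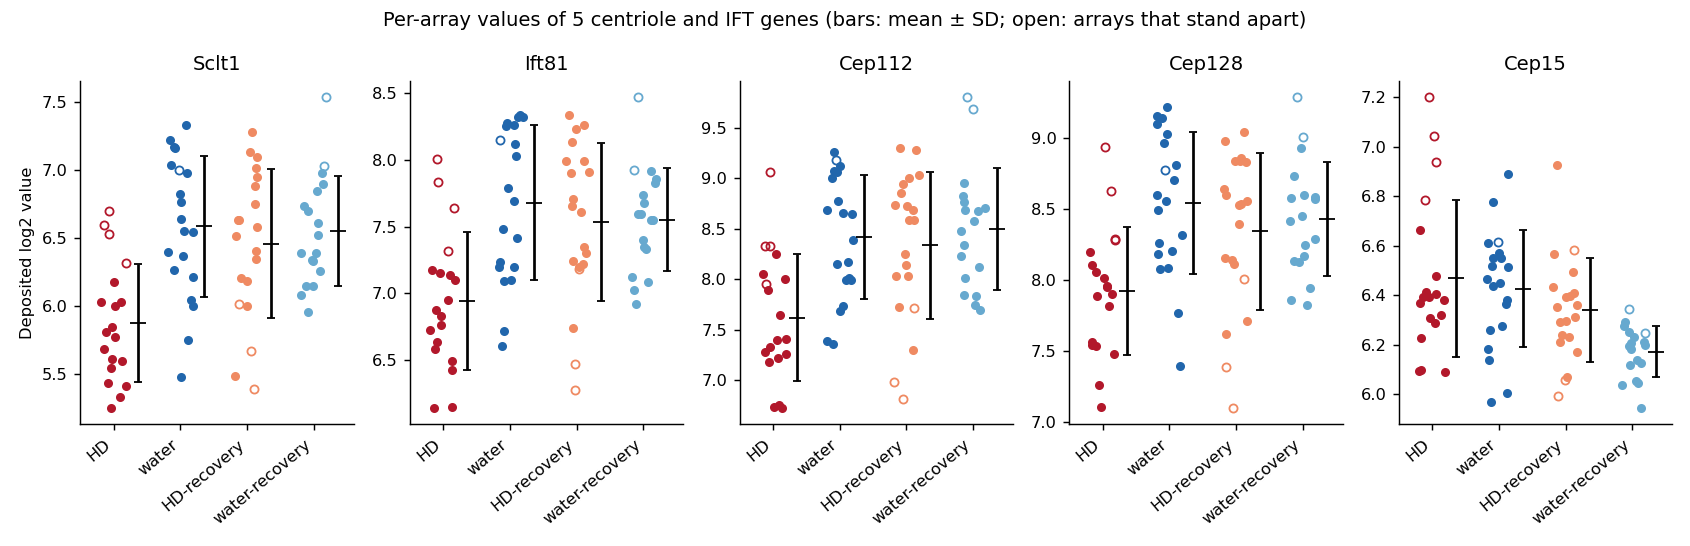
Deposited log2 value (y axis) of Sclt1, Ift81, Cep112, Cep128 and Cep15 in each array, by group on the x axis, with bars for mean ± SD and open circles for the 10 arrays that stand apart. In the first 4 panels the HD arrays sit mostly below the water arrays, and the highest HD values are open circles, while the Cep15 values of HD and water overlap widely.

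In arrays labelled HD, the highest values of these 4 genes all came from arrays that stood apart. Every HD array above a water median was 1 of 3, HD 3, HD 5 and HD 14. Without the 10 arrays that stood apart, the log2 differences were -0.87 for Sclt1, -0.92 for Ift81, -0.97 for Cep112 and -0.77 for Cep128 (q from 0.00014 to 0.00038 from limma). In that fit 15 members passed as lower and 3 as higher, while 12.8% and 17.4% of all probe sets passed in those directions.

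All but the call of Sclt1 were close to the threshold. In the 39 fits that each omitted 1 array, Sclt1 passed in all 39, Ift81 in 25, Cep128 in 18 and Cep112 in 17. Only Sclt1 passed without HD 2, 9, 11, 12 or 16, or without water 2, 3, 4, 7, 9, 10, 13, 19 or 20. Sclt1 and Ift81 alone passed without HD 7, 8, 17, 18, 19 or 20 or water 14, Cep112 missed the threshold without water 6, and Cep97 joined the 4 without HD 3. Over these fits the number of all probe sets that passed ran from 76 to 376. The log2 difference of Ift81 ran from -0.80 to -0.69 and that of Sclt1 from -0.77 to -0.67. After array medians were centred only Sclt1 passed, and 0.216% of all probe sets.

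Replicates numbered 1 to 10 alone gave differences from -0.98 for Cep112 to -0.79 for Cep128, and those numbered 11 to 20 alone from -0.62 for Ift81 to -0.45 for Cep128. None of the members passed in either run of numbers, while 0.137% of all probe sets passed in the first and 0% in the second.

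**Figure D2:**
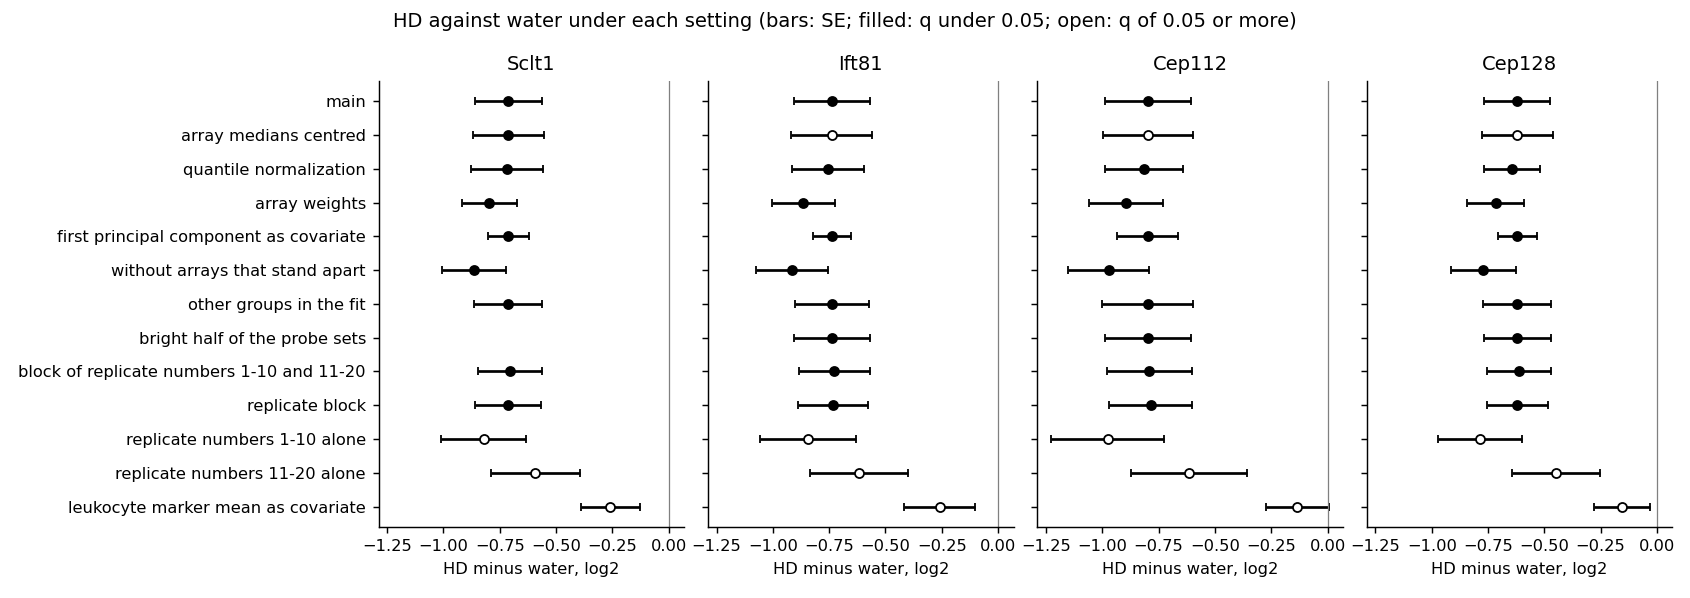
Log2 difference HD minus water (x axis, bars are SE) of the 4 called genes under each setting of the analysis (y axis), filled where q was under 0.05. Sclt1 is missing from the setting with the brighter probe sets because its mean was below the median, and the points nearest 0 are those with the leukocyte marker mean as a covariate.

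The sperm had been exposed to a buffer that lyses somatic cells, and by the study's methods neither microscopy nor the RNA traces, which lacked ribosomal peaks, showed such cells. Some markers of leukocytes were also lower in arrays labelled HD. Of the 28 leukocyte and macrophage markers 5 passed as lower and none as higher, while 0.455% of all probe sets passed as lower. The median log2 difference of the markers was -0.20 against 0.01 over all probe sets. Cx3cr1, a chemokine receptor of monocytes, had -0.36 and Lyz2, the lysozyme of macrophages, -0.95 (q = 0.0048 and 0.042 from limma). The marker mean ran from 7.11 through a median of 7.24 to 7.90 in the HD arrays and from 7.25 through 7.60 to 7.93 in the water arrays. It correlated with the 4 genes across the 77 arrays after group means were removed. For Ift81 Pearson's r was 0.71 and Spearman's rho 0.72 (permutation within groups, 100000 resamples, p = 1e-05 and adjusted p = 1e-05 for both, the smallest they can give). For Sclt1, Cep112 and Cep128 r was 0.72, 0.75 and 0.72, with rho of 0.71, 0.75 and 0.72 and the same p. These values share whatever varies across whole arrays. The share of all genes with such a correlation is not given here, so the relation is not shown to be particular to these 4.

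Without the 2 arrays farthest from the median r with the marker mean was 0.74 for Ift81, and within the 4 groups it ran from 0.51 to 0.90. With replicates 1 to 10 it was 0.72 and with replicates 11 to 20 it was 0.71. With the leukocyte marker mean as a covariate, a setting chosen after seeing the data, no member passed in HD against water. Of all probe sets 5 passed as higher and 133 as lower without this covariate, and 240 and 19 with it (0.887%). The log2 differences then were -0.26 for Sclt1 (SE 0.13, q = 0.26 from limma), -0.26 for Ift81 (SE 0.16, q = 0.31), -0.13 for Cep112 (SE 0.14, q = 0.43) and -0.15 for Cep128 (SE 0.12, q = 0.38). The marker mean was itself lower in HD arrays, so this fit also takes out part of any difference between the groups. It cannot separate the markers from the exposure. In these bulk samples fewer cells of a type and less RNA per cell cannot be told apart.

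**Figure D3:**
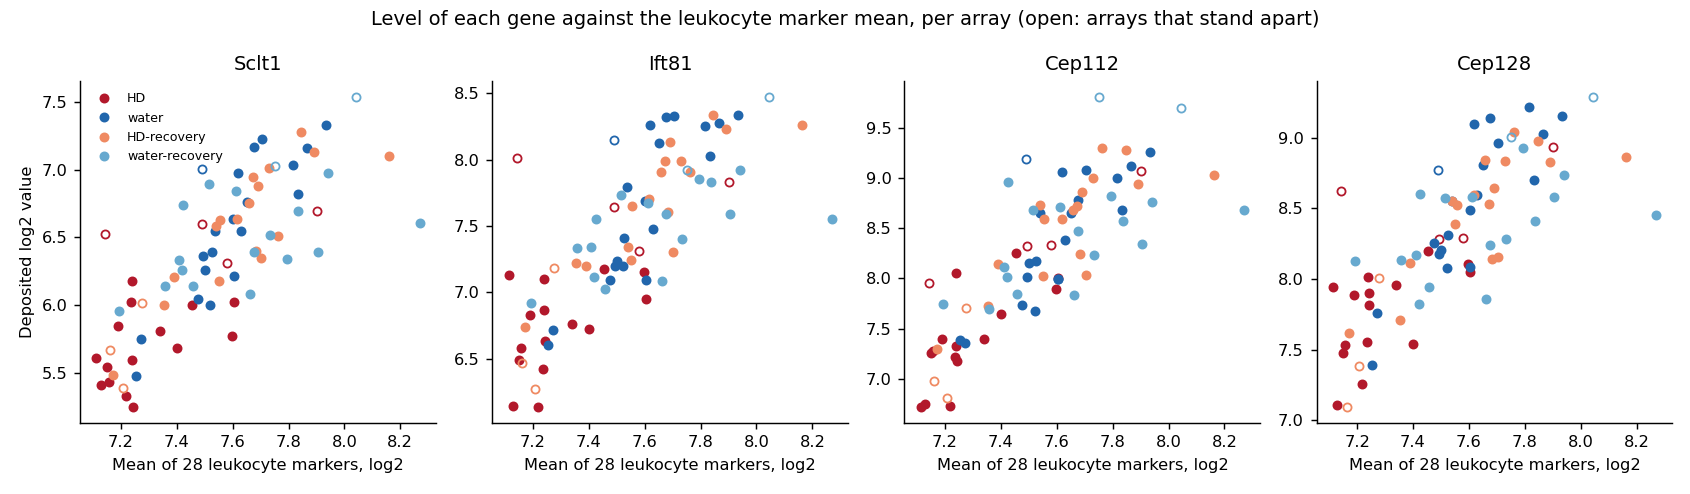
Deposited log2 value of each of the 4 called genes (y axis) against the mean of 28 leukocyte and macrophage markers (x axis, log2), 1 point per array, coloured by group, with open circles for arrays that stand apart. Arrays with a higher marker mean tend to have higher levels of all 4 genes in each group, and most HD arrays lie at the lower left. An exception is HD 5, with a marker mean of 7.14 and the highest Ift81 value of the HD arrays, 8.01.

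Other marker lists were read beside these genes, while of all 29214 probe sets 133 (0.455%) passed as lower and 5 as higher. The mean of 7 erythroid markers was 7.32 ± 0.29 (SD, n = 19) in HD arrays and 7.67 ± 0.24 (SD, n = 20) in water arrays, with 1 marker, Ahsp, passing as lower. That of 12 fibroblast markers was 7.46 ± 0.16 against 7.71 ± 0.19, with Dcn lower. The mean of 26 spermatid markers was 9.09 ± 0.47 against 8.93 ± 0.38. Of these only Odf1 of the tail fibres passed, as lower, while the median log2 difference of the 26 was 0.24. That of 12 Sertoli cell markers was 6.77 ± 0.18 against 6.62 ± 0.10, with Clu passing as higher. The mean of 22 epididymal epithelium markers was 6.98 ± 0.22 against 7.04 ± 0.18, and none passed. Their part in the differences of the 4 genes was not tested.

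The IFT-B core had 11 members, of which Ift81 was lower and 10 did not pass, with a median log2 difference of 0.05. Ift74, the binding partner of Ift81, ran from 5.72 through 6.12 to 8.86 in arrays labelled HD and from 5.44 through 6.12 to 6.53 in arrays labelled water. The medians were alike, and the log2 difference was 0.18 (SE 0.17, q = 0.93 from limma, 95% confidence interval from -0.17 to 0.53). It was -0.03 without the arrays that stood apart. Within an array, Ift81 minus Ift74 averaged 0.65 ± 0.58 (SD, n = 19) in HD arrays and 1.57 ± 0.34 (SD, n = 20) in water arrays. This difference, of a pair chosen after its values were seen, was -0.92 (two-sided permutation test, p = 2e-05, adjusted p = 0.00012 over 6 such tests). It fell below the water median in 18 of 19 HD arrays and was -0.88 without the arrays that stood apart. Since Ift81 had already been called in these arrays, this test adds no evidence beyond that call.

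The 2 measured Ift70 genes, subunits of the core, had values above 0 that did not pass. Ift70a2 had a log2 difference of 0.24 (SE 0.09, q = 0.34) and Ift70b 0.14 (SE 0.09, q = 0.77, both from limma). They are close paralogs, and probes can bind both transcripts. Other core subunits ran from -0.05 for Ift56 to 0.08 for Ift25, with Ift88 and Ift52 at 0.01 and -0.01.

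None of the 4 IFT-B periphery members passed. Ift20, which carries cargo from the Golgi, had -0.15 (SE 0.22), with a 95% confidence interval from -0.59 to 0.29. Ift57 had 0.17 (SE 0.09), Ift80 -0.11 and Ift172 0.05. The 2 IFT-A members, which serve return transport, were Ift122 at -0.09 (SE 0.10) and Ift43 at 0.05 (SE 0.05).

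The 5 BBSome subunits did not pass either, from -0.02 (SE 0.10) for Bbs5 to 0.20 (SE 0.12) for Bbs1. Bbs10, a chaperonin-like protein that helps to assemble the BBSome, had 0.07 (SE 0.06). The 95% confidence intervals of these 6 genes lay within -0.22 and 0.45.

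Of the 3 distal appendage members only Sclt1 passed. Cep83, at the base of the appendage, had -0.07 (SE 0.07, q = 0.95) and Cep89, another protein of the appendage, had 0.09 (SE 0.05, q = 0.71, both from limma). Within an array, Sclt1 minus Cep83 was lower in HD than in water arrays by a difference of -0.64, and Sclt1 minus Cep89 by -0.80. The permutation p-values were 4e-05 and 8e-05, with adjusted values of 0.00012 and 0.00016 over the same 6 tests. In both, 18 HD arrays of 19 were under the median of water. Sclt1 had already been called in these arrays, and both pairs were chosen after their values were seen. These tests therefore add no evidence beyond that call.

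On the subdistal side, Cep170, which binds microtubules there, had -0.21 (SE 0.12, q = 0.70 from limma). The 5 duplication and assembly genes did not pass. Cep97, which with Ccp110 caps the centriole, ran from 5.67 through 6.02 to 6.69 in arrays labelled HD and from 6.02 through 6.26 to 6.47 in arrays labelled water. Its log2 difference was -0.20 (SE 0.07, q = 0.21 from limma). Cep57, which helps to organise the centriole's surroundings, had 0.18 (SE 0.13).

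Of the 7 members of the transition zone, satellites and ciliogenesis none passed. Cep290, the scaffold of the transition zone, had 0.18 (SE 0.09, q = 0.58), Cep131, a satellite protein, 0.13 (SE 0.07, q = 0.68) and Cep20, another satellite protein, 0.12 (SE 0.06, q = 0.67, all from limma). Cep19, which helps IFT trains enter the cilium, had -0.14 (SE 0.14, q = 0.95).

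Cep295nl, a relative of the centriole elongation factor Cep295, had the highest difference of the 46 at 0.45 (SE 0.21, q = 0.55 from limma). Its HD levels ran from 6.16 through 6.96 to 10.14 against 6.16 through 6.67 to 7.64 in water, so that the groups overlapped. Without the arrays that stood apart the difference was 0.31.

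Over all 46 members the median log2 difference was 0.04, against 0.01 over all probe sets, and 29 differences were above 0 and 17 below it. Both without the arrays that stood apart and with array weights 21 were above 0 and 25 below it, and the median was -0.03, against 0.05 and 0.04 over all probe sets. At an unadjusted p under 0.05, 3 members were higher and 5 lower (17.4%), against 8.30% of all probe sets.

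**Figure D4:**
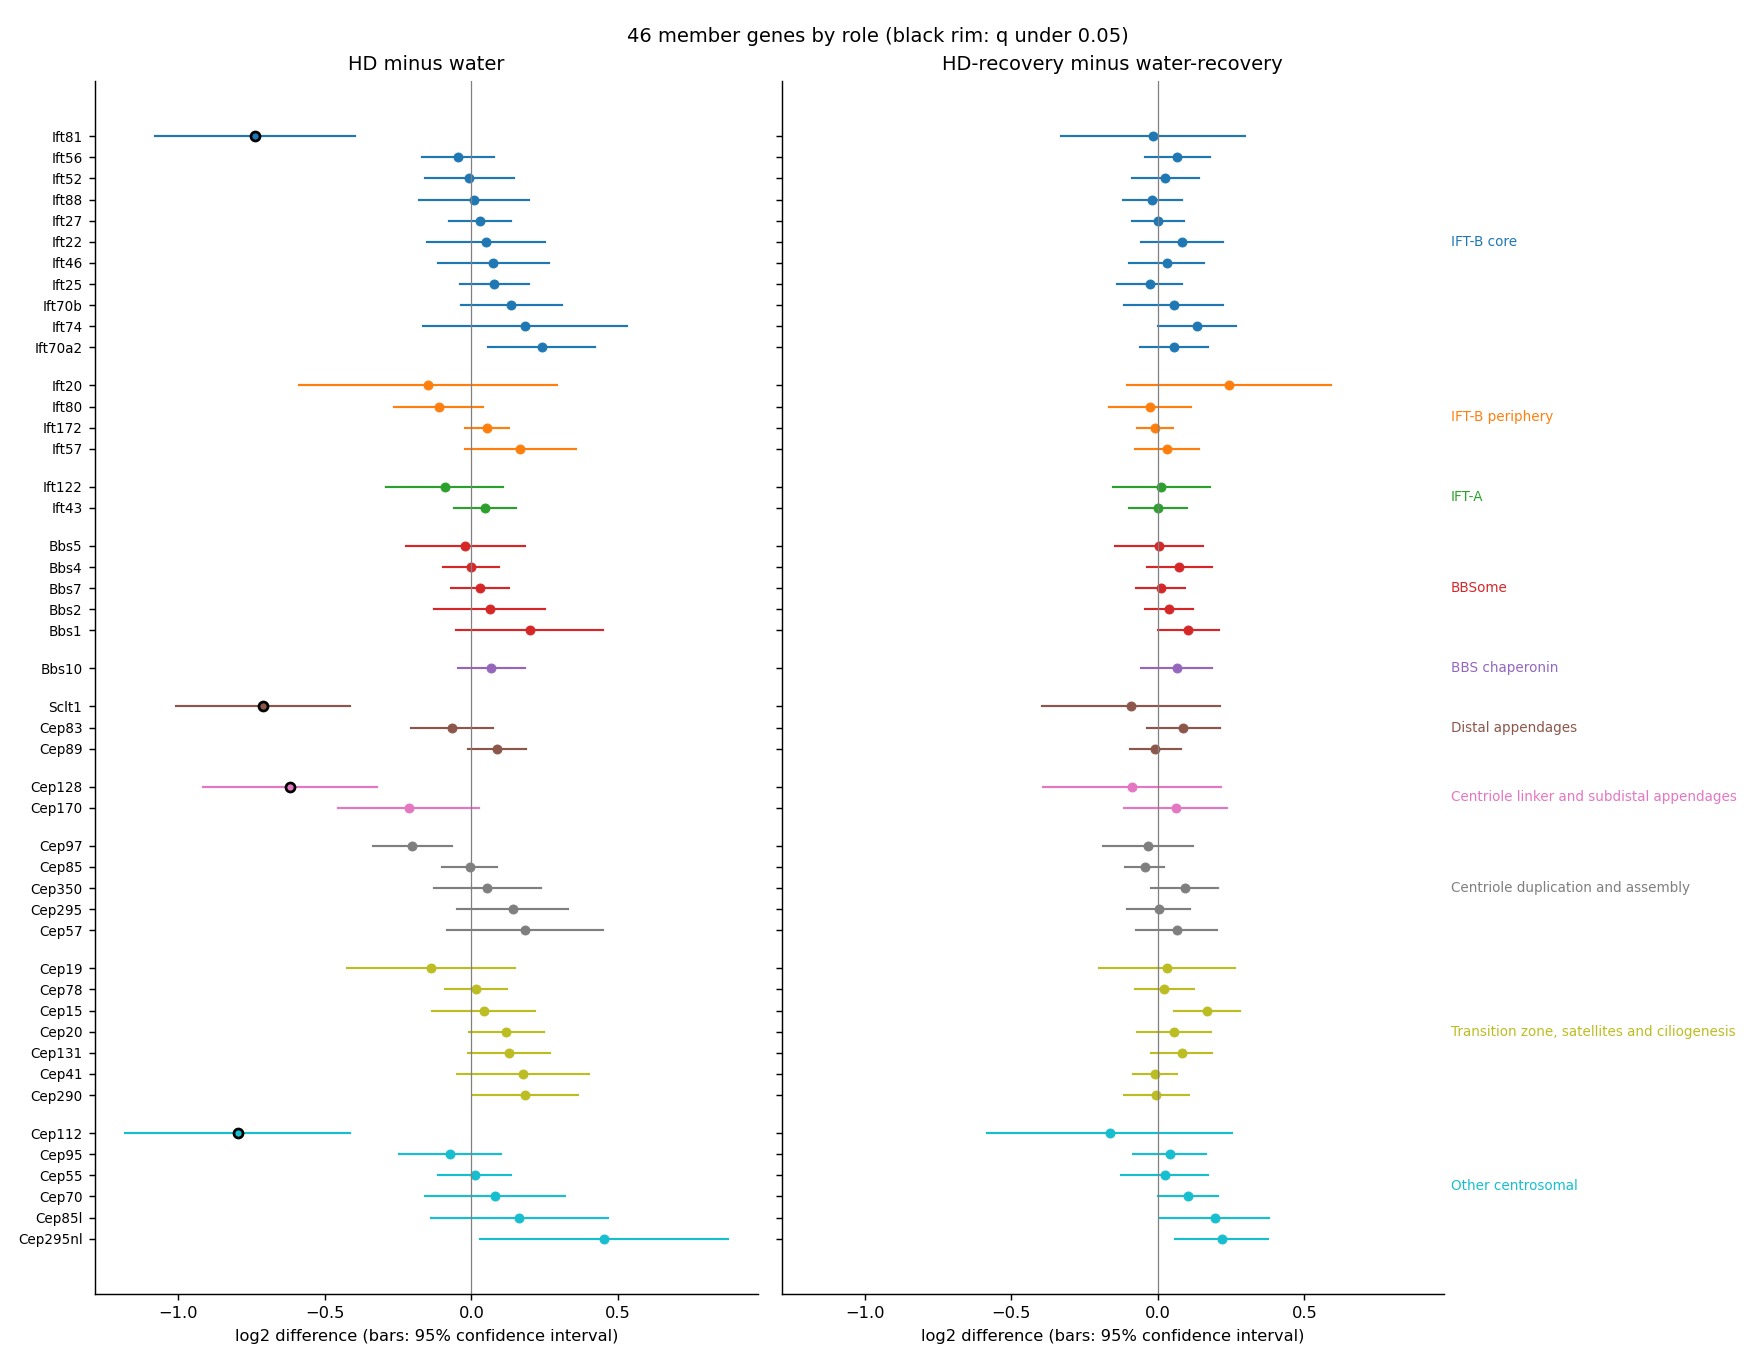
Log2 difference (x axis, bars are 95% confidence intervals) of each of the 46 genes (y axis, coloured by role), HD minus water on the left and HD-recovery minus water-recovery on the right, with a black rim where q was under 0.05. The 4 rimmed genes on the left, Ift81, Sclt1, Cep128 and Cep112, have the lowest values of their roles, and none is rimmed on the right.

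Genes of the same structures under other names did not pass in HD against water. Of 12 measured subunits, motors and regulators of IFT none passed, with a median log2 difference of 0.07. The 2 of smallest p were Wdr35, an IFT-A subunit, at 0.37 (SE 0.12, q = 0.19 from limma), and Arl3, a small GTPase of the cilium, at 0.21 (SE 0.07, q = 0.29). Of 9 BBSome partners none passed (median 0.02). Wdpcp and Sdccag8, both Bardet-Biedl disease genes, had -0.55 (SE 0.15, q = 0.073) and -0.51 (SE 0.14, q = 0.093).

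Of 30 other centriole and centrosome genes none passed (median 0.05). Cntln, a centriole linker protein, had -0.32 (SE 0.08, q = 0.070 from limma) and Nek2, the kinase that dissolves the linker, 0.37 (SE 0.14, q = 0.34). Of 15 transition zone genes none passed (median 0.05), with Iqcb1 at 0.18 and B9d1 at 0.16.

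The 4 genes varied together from array to array within the groups. With Ift81, after group means were removed, Pearson's r over the 77 arrays was 0.94 for Cep128, 0.93 for Sclt1 and 0.89 for Cep112, and Spearman's rho was 0.94, 0.92 and 0.90. All 6 pairs among the 4 had r from 0.89 to 0.94 (permutation p = 1e-05 and adjusted p = 1e-05 over 12 relations, the smallest the permutations can give). Without the 2 arrays farthest from the median r of Ift81 with Sclt1 was 0.92, and within replicates 1 to 10 and 11 to 20 it was 0.95 and 0.91.

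Ift74 followed Ift81 less closely, with r = 0.57 and rho = 0.64, and Cep15 with r = 0.59 and rho = 0.54, which ran from 0.18 to 0.77 in Pearson's r within the groups. The next members in likeness to Ift81 were Cep19 and Cep170, at 0.88 and 0.86. Of the 45 other members 6 had r of 0.8 or more, as had 4.68% of 14505 genes, and the median r was 0.47 over members and -0.19 over all genes. The points share whatever varies across whole arrays, such as the first principal component, so this likeness is a description. The genes outside the family most like Ift81 were Ubn2, Kcmf1, Sdccag8, Tax1bp1 and Mllt10, with r from 0.95 to 0.96.

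After recovery, none of the 4 genes passed in HD-recovery against water-recovery. No member and no probe set passed (0% of 29214, limma, n = 20 and 18 arrays), while 6 members and 1318 probe sets had an unadjusted p under 0.05. Sclt1 ran from 5.39 through 6.55 to 7.28 in HD-recovery and from 5.95 through 6.46 to 7.54 in water-recovery, and Ift81 from 6.27 through 7.63 to 8.34 and from 6.92 through 7.57 to 8.48. The log2 differences, with their 95% confidence intervals, were -0.09 for Sclt1 (-0.39 to 0.21) and -0.02 for Ift81 (-0.33 to 0.30). They were -0.16 for Cep112 (-0.58 to 0.25) and -0.09 for Cep128 (-0.39 to 0.22). Within an array, Ift81 minus Ift74 differed between the groups by -0.15, Sclt1 minus Cep83 by -0.18 and Sclt1 minus Cep89 by -0.08, and none passed (permutation tests, adjusted p = 0.35, 0.22 and 0.64).

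The 6 members with an unadjusted p under 0.05 after recovery (13.0%, against 4.51% of all probe sets) were all higher in HD-recovery. Their number moved with the processing. It was 2 with array medians centred (4.35% against 4.73%) and 1 with all 4 groups in the fit (2.17% against 2.53%). Without the arrays that stood apart it was 17 (37.0% against 25.4%). Cep15 ran from 5.99 through 6.33 to 6.93 in HD-recovery and from 5.94 through 6.20 to 6.35 in water-recovery, and 16 of the 20 HD-recovery arrays lay above the water-recovery median. Its log2 difference was 0.17 (SE 0.06) and did not pass (q = 0.74 from limma). Cep295nl had 0.22 (SE 0.08, q = 0.80) and Cep85l 0.19 (SE 0.09, q near 1). In the other direction Cep85, a regulator of the kinase Nek2, had -0.05 (SE 0.03). Without the arrays that stood apart 10 members passed, all higher, against 6.54% of all probe sets in that direction, and Cep15 (0.20) was among them. In that fit the 4 genes had differences above 0, from 0.14 for Sclt1 to 0.22 for Ift81, and did not pass.

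With all arrays kept at equal weight and no covariate, the difference at the end of exposure was not shown to differ from that after recovery. In the test of the interaction, which takes the first difference minus the second, no member and no probe set passed (0%, limma over all 4 groups), with 4 members and 987 probe sets at an unadjusted p under 0.05. The 4 were Ift81 at -0.72 (SE 0.24), Cep112 at -0.63 (SE 0.29), Sclt1 at -0.62 (SE 0.22) and Cep128 at -0.53 (SE 0.22), each with q near 1. Without the arrays that stood apart 28 of the 46 members passed, as did 56.8% of all probe sets, a share near that of the members. The 4 genes were among them, from -1.17 for Cep112 to -0.92 for Cep128. With the first principal component in the model these 4 were the only members that passed, with 1.22% of all probe sets.

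Between the times, age and any run of arrays cannot be told apart from recovery. Between the controls, water-recovery against water, no member and no probe set passed (0%), with 1 member and 1374 probe sets at an unadjusted p under 0.05. This member was Cep15, at -0.25 (SE 0.07, q = 0.88 from limma). Ift81, Sclt1, Cep112 and Cep128 had differences of -0.13, -0.04, 0.08 and -0.11.

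In HD-recovery against HD, 45 probe sets passed (0.154%) and no member did. At an unadjusted p under 0.05, 4 members were higher and 7 lower (23.9%), against 9.55% of all probe sets. Sclt1 had 0.58 (SE 0.15, q = 0.076), Ift81 0.59 (SE 0.17, q = 0.11), Cep112 0.72 (SE 0.20, q = 0.12) and Cep128 0.42 (SE 0.15, q = 0.25, all from limma). Counts of members called moved with single arrays. They were 1 without HD 3 or HD-recovery 1, where 96 and 112 probe sets passed, and 2 without HD 5, where 92 passed. They were 3 without HD 14, HD-recovery 2 or HD-recovery 9, where 172, 123 and 147 passed. Ift70a2 had -0.24 (SE 0.08, q = 0.18) and Cep295nl -0.43 (SE 0.16, q = 0.28).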

How the data were processed

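The authors hybridised sperm RNA of 77 rats to Affymetrix rat gene arrays and deposited 1 table of log2 intensities for 29214 probe sets. They normalised the intensities after earlier published methods, with steps not stated in the sources used here. The log2 scale was read from the values, which ran from 2.51 to 14.63. No columns were left unused. As in the study's methods, exposed arrays were set against the control arrays of their time with limma 3.58.1 in R 4.3.3 over all probe sets, and p-values were converted to q-values by Storey's method. A q under 0.05 was called. The interaction and the comparisons between times used all 4 groups in 1 fit. The fit was tested on simulated data. No 2 arrays were identical, and the highest correlation between 2 was 0.99.

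Gene symbols came from the platform annotation, with 15310 probe sets of 1 symbol, 323 of several and 13581 of none, and all 46 members matched RefSeq by gene identifier. The members, lists and tests were chosen with earlier results of these data known. Named were the 3 markers (Ift81, Sclt1, Cep15), members called, those of smallest p in each direction, the extremes of each role, for other lists the genes called or else those of smallest p, and the genes most like Ift81. Partner genes and subunits beside them were chosen after their values were seen. Permutation tests and correlations used scipy. The number of arrays limits the precision. The alternatives were other scalings, array weights, the first principal component, fewer arrays or probe sets, blocks, and leaving out each array.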

Additional observations from a re-analysis of the deposited data

How the results depend on the processing

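All limits here concern counts of members called and log2 differences. Each count is given with the share of all probe sets that passed in the same fit, or their number where 1 array was omitted. In HD against water 4 members passed (0.472%). The count was 1 with array medians centred (0.216%), 12 with array weights (17.7%), 18 without the arrays that stood apart (30.2%), 0 with replicates 1 to 10 alone (0.137%), 0 with replicates 11 to 20 alone (0%) and 0 with the leukocyte marker mean as a covariate (0.887%), a setting chosen after seeing the data. Leaving out each array in turn gave 1 to 5, with 76 to 376 probe sets passing. After recovery no member passed (0%). The count was 1 with array weights (1.80%) and 10 without the arrays that stood apart (13.1%). In every fit that left out 1 array it was 0, as was the number of all probe sets. For the interaction 28 members passed when the arrays that stood apart were left out (56.8%), 17 under array weights (33.7%) and 4 with the first principal component in the model (1.22%). In water-recovery against water it was 1 with this component in the model (1.08%) and 2 with replicates 1 to 10 alone (7.21%). In HD-recovery against HD the count was 27 when the arrays that stood apart were left out (57.4%). It was 25 under array weights (45.2%) and 7 with the component in the model (4.73%). With replicates 11 to 20 alone it was 18 (26.3%) and with the leukocyte covariate 1 (3.58%). When each array was left out it ran from 0 to 3, with 16 to 172 probe sets passing. The cause was not tested.

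The 4 called genes were lower in arrays labelled HD under every setting run in HD against water. Signs turned for smaller differences there. With array weights and without the arrays that stood apart Cep15 had -0.048 and -0.088. Without the latter 8 members turned, none called in either fit: Cep15, Ift74, Ift88, Ift22, Ift46, Cep70, Bbs2 and Cep350. With replicates 11 to 20 alone Cep131 had -0.048, Bbs5 0.071, Bbs1 -0.00057 and Ift57 -0.0020, and with replicates 1 to 10 alone Cep85 had 0.0063 and Ift122 0.024. With the leukocyte covariate Cep131 had -0.0087, Bbs5 0.10, Bbs10 -0.026, Cep170 0.070, Cep19 0.24, Ift43 -0.030 and Ift20 0.49. Leaving out each array moved Cep57 between 0.059 and 0.21, Ift57 between 0.089 and 0.19 and Bbs1 between 0.11 and 0.23, none of them called. Leaving out each array gave -0.022 to 0.0091 for Cep85 and -0.097 to 0.0069 for Bbs5. In HD-recovery against water-recovery signs turned for the 4 genes. Array weights gave Ift81 0.12, Sclt1 0.045, Cep112 0.058 and Cep128 0.076. Leaving out the arrays that stood apart gave Ift81 0.22, Sclt1 0.14, Cep112 0.20 and Cep128 0.15. Replicates 11 to 20 alone gave Ift81 0.11, Sclt1 0.067 and Cep128 0.015, and the leukocyte covariate gave Ift81 0.11, Sclt1 0.024 and Cep128 0.026. Leaving out each array gave -0.059 to 0.050 for Ift81.

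With the replicate number as a block (replicate block), 4 members passed in HD against water, as did 0.534% of all probe sets. The log2 difference of Ift81 was -0.73, and no count of members called changed in the other comparisons. The numbers did not pair the arrays, since the correlation of same-numbered arrays ran from -0.58 to 0.65 over 19 pairs of HD and water and exceeded 0.1 in 8 of them. Only 2 of the arrays correlated best with their own number.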
